A study of Mus musculus with 34 samples.

Results

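The 9 genes described here were Adipor1, Adipor2, Ppara, Ppard, Pparg, Rxra, Rxrb, Ppargc1a and Ppargc1b. They encode the adiponectin receptors, the PPAR nuclear receptors, the RXR partners of the PPARs and the PGC-1 coactivators. They were taken by name and not by a rule on their values, though with earlier results of these data known. They are 9 of the 25965 gene entries of the read count table. RNA was measured in cumulus cells (CCs), the granulosa cells that surround the oocyte, of superovulated C57BL/6J females that were 8 weeks old when the protocols began, with no genetic change in any group. In the leptin protocol, mice received intraperitoneal saline (16 C, 3 libraries) or 100 µg of leptin per day (16 L, 5 libraries) for 16 days. In the diet protocol, mice ate chow diet (CD, with 11% of energy from fat) or high-fat diet (HFD, with 58%; these shares are from the labels, and the study's methods give slightly different ones) for 4 weeks (5 CD and 5 HFD libraries) or 16 weeks (6 CD and 7 HFD libraries), and a further 3 libraries came from mice labelled as low weight gainers after 16 weeks of HFD. Each library held about 50 CCs, from 1 cumulus-oocyte complex by the labels and from 1 animal by the study's methods, so p-values below measure the spread between these libraries. In such bulk samples, fewer cells of a type and less RNA per cell cannot be told apart.

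Adiponectin is a hormone of fat tissue that binds AdipoR1 and AdipoR2, receptors of the membrane with ceramidase activity, and classical work links AdipoR1 to AMP-activated kinase and AdipoR2 to PPARα. The PPARs are nuclear receptors for fatty acids and their derivatives: they bind DNA as dimers with an RXR at a direct repeat of AGGTCA spaced by a single base, and regulate lipid uptake, storage and oxidation. PGC-1α and PGC-1β are coactivators that dock on PPARs and other factors and raise mitochondrial genes. In the ovary, PPARγ of granulosa cells is the best-known member and is described to fall after the luteinizing hormone surge.

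The libraries held 1104611 to 13207018 reads on genes. Values are given below as normalised CPM, the read count scaled by library size and by TMM factors over all 34 libraries, which ran from 0.64 to 1.39. Where a library had 0 reads of a gene, up to 3 reads are allowed, or 0.214 to 2.75 normalised CPM, for counting error only. Granulosa markers were read in every library, with a summed level of 1595 normalised CPM or more. Some libraries stood apart. The 16 L library 18 held 34571 normalised CPM of oviduct epithelium markers and 11228 of red blood cell markers. The 16 L libraries 20 and 21 held 1137 and 1775 of the oviduct markers, against 26.5 to 111 in 16 C, and library 21 held 1939 of the red blood cell markers, against 1.54 to 30.2. The 4-week HFD library 5 held 380 normalised CPM of oocyte markers, against 0.556 to 2.96 in the other 4 of its group. The 16-week CD libraries 1 and 2 differed from the other 4 of their group in the share of reads on the 50 most abundant genes, 14.9% and 15.5% against 24.3% to 30.4%. The 16 L library 19 had 4.71% of its reads on mitochondrial genes, against 0.435% to 0.654% in the other 4. Calls of the members are given with and without these libraries where that changes a call.

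Per kilobase of exon, the level of the adiponectin receptors was the highest of the 9 genes. The median over 34 libraries was 34.9 RPKM for Adipor2 and 30.5 RPKM for Adipor1, where RPKM is normalised CPM per kilobase of merged GENCODE exons. Pparg followed with 11.3 RPKM and Rxrb with 6.65 RPKM. All 4 of these genes had reads in 34 of 34 libraries. The other members were near the limit of detection. Rxra had a median of 0.508 RPKM, Ppara 0.271, Ppard 0.114 and Ppargc1b 0.0891. Ppargc1a had a median of 0, with 100 reads in all, spread over 12 of 34 libraries. The PPAR transcripts of these CCs were thus mostly Pparg, with 96.3% (median) of the PPAR reads per kilobase and a range of 76.4% to 100%. Rxrb made up 92.6% (median) of the Rxra and Rxrb reads per kilobase, with a range of 71.5% to 100%.

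**Figure D1:**
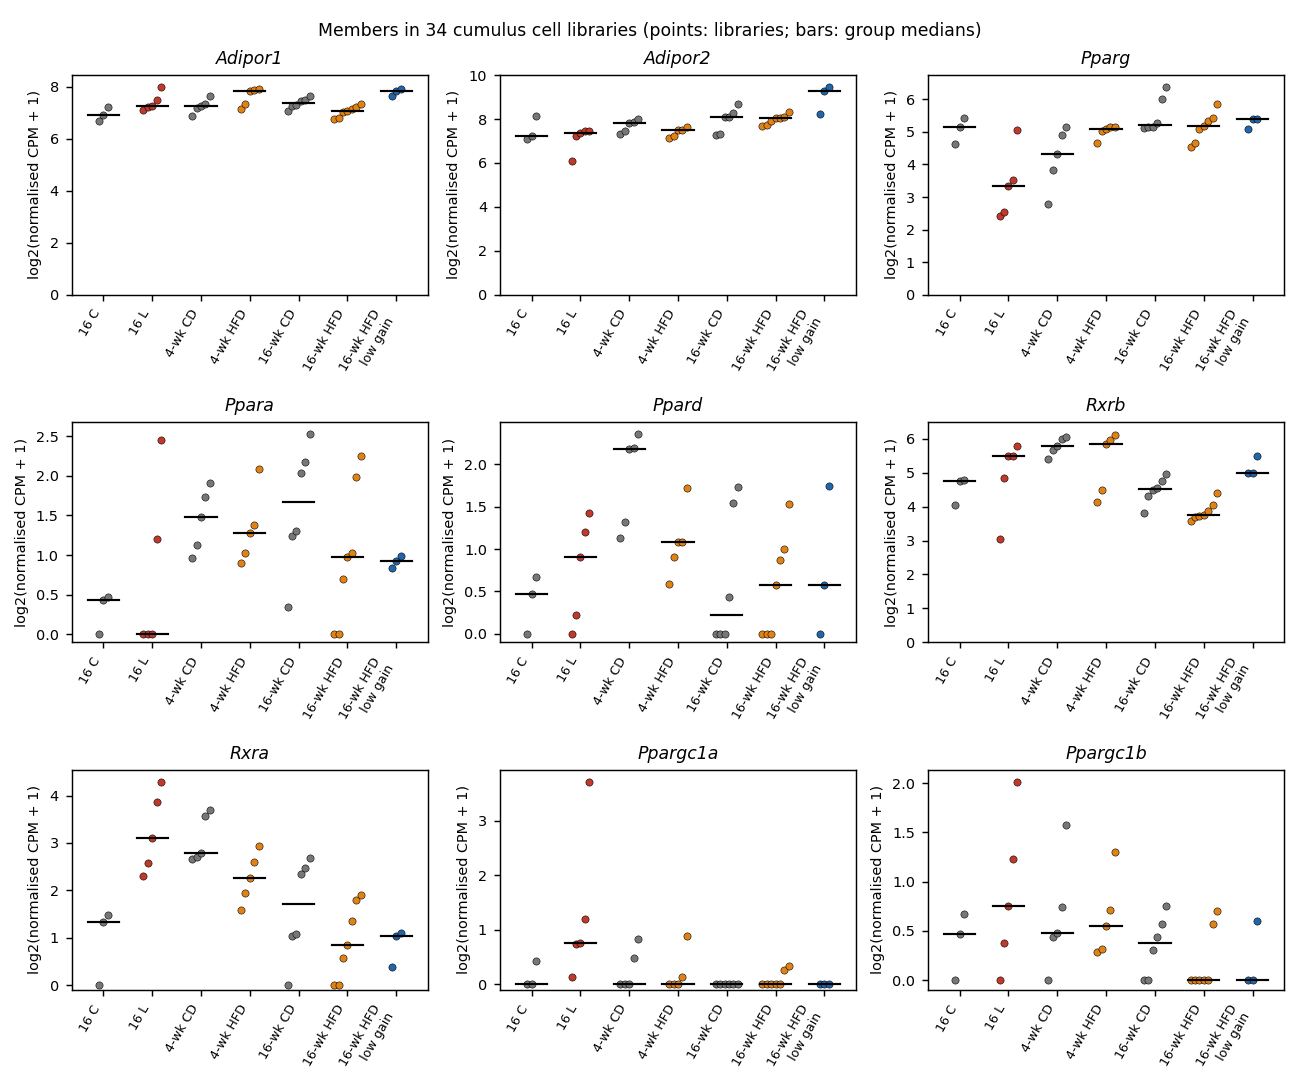
Level of each member, as log2(normalised CPM + 1), in the 34 libraries by group, with 1 point per library and a bar at the group median. Adipor1, Adipor2, Pparg and Rxrb are read in every library, Adipor2 and Rxrb rise in the low weight gainers over 16-week HFD, and Ppargc1a is at 0 in most libraries outside 16 L.

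The order of the 7 group medians separated few neighbours. Of the 6 neighbouring pairs, all overlapped in their libraries for Adipor2, Ppard, Pparg, Rxra and Ppargc1b. For Adipor1, the low weight gainers (median 226 normalised CPM) and the next group, 16-week CD (166), did not overlap. For Rxrb, the low weight gainers (30.8) and the next group, 16 C (25.7), did not overlap. For Ppara the low weight gainers (0.906) lay above 16 C (0.355), but this rested on few reads. For Ppargc1a all groups but 16 L (0.689) tied at a median of 0, so 16 L had no single next group. Its lowest library, at 0.0998, lay above 16-week CD and the low weight gainers, which had 0 reads. That library lay under the highest of 16 C (0.355), 16-week HFD (0.258), 4-week CD (0.785) and 4-week HFD (0.858), so 16 L overlapped these groups.

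The members were tested in 6 comparisons with edgeR's quasi-likelihood test on all genes, and a call needed an adjusted p (Benjamini-Hochberg) under 0.05. Calls were made in 1 of the 6. In the low weight gainers against 16-week HFD, 3 of the 4 members tested were called, all higher: Rxrb, Adipor2 and Adipor1. In that comparison 20.7% of all genes were called, and 10.8% were called higher. In 16 L against 16 C, 0 of 5 members were called with edgeR, where 8.56% of all genes were. At an unadjusted p under 0.05 there were 2 members (32.4% of all genes). DESeq2 called 1 member and 2629 of all 11723 genes, and limma-voom 3 members and 7552 genes. Each of these member counts includes Rxra, which passed the read filter through the 16 L libraries alone. In 4-week HFD against 4-week CD, 0 of 5 were called with edgeR (4.26% of all genes), with 1 at an unadjusted p under 0.05 (24.3%). There DESeq2 called 0 members and 1291 of all 11727 genes, and limma-voom 2 members and 4048 genes. In 16-week HFD against 16-week CD, 0 of 4 were called with edgeR (0.0276% of all genes), with 1 at an unadjusted p under 0.05 (25.3%). DESeq2 and limma-voom called 0 members there, and 1056 and 5 of all 10861 genes. In the low weight gainers against 16-week CD, 0 of 6 were called with edgeR (0.00861%), with 2 at an unadjusted p under 0.05 (11.2%). DESeq2 and limma-voom called 0 members there, and 250 and 196 of all 11620 genes. For the difference of the HFD effect between 16 and 4 weeks, 0 of 7 were called with edgeR (3.66%), with 2 at an unadjusted p under 0.05 (23.4%). Here DESeq2 called 0 members and 1165 of all 12235 genes, and limma-voom 1 member and 2355 genes. All libraries of the diet protocol, at 4 and at 16 weeks, enter more than 1 of these comparisons, so the results of these comparisons are not independent.

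**Figure D2:**
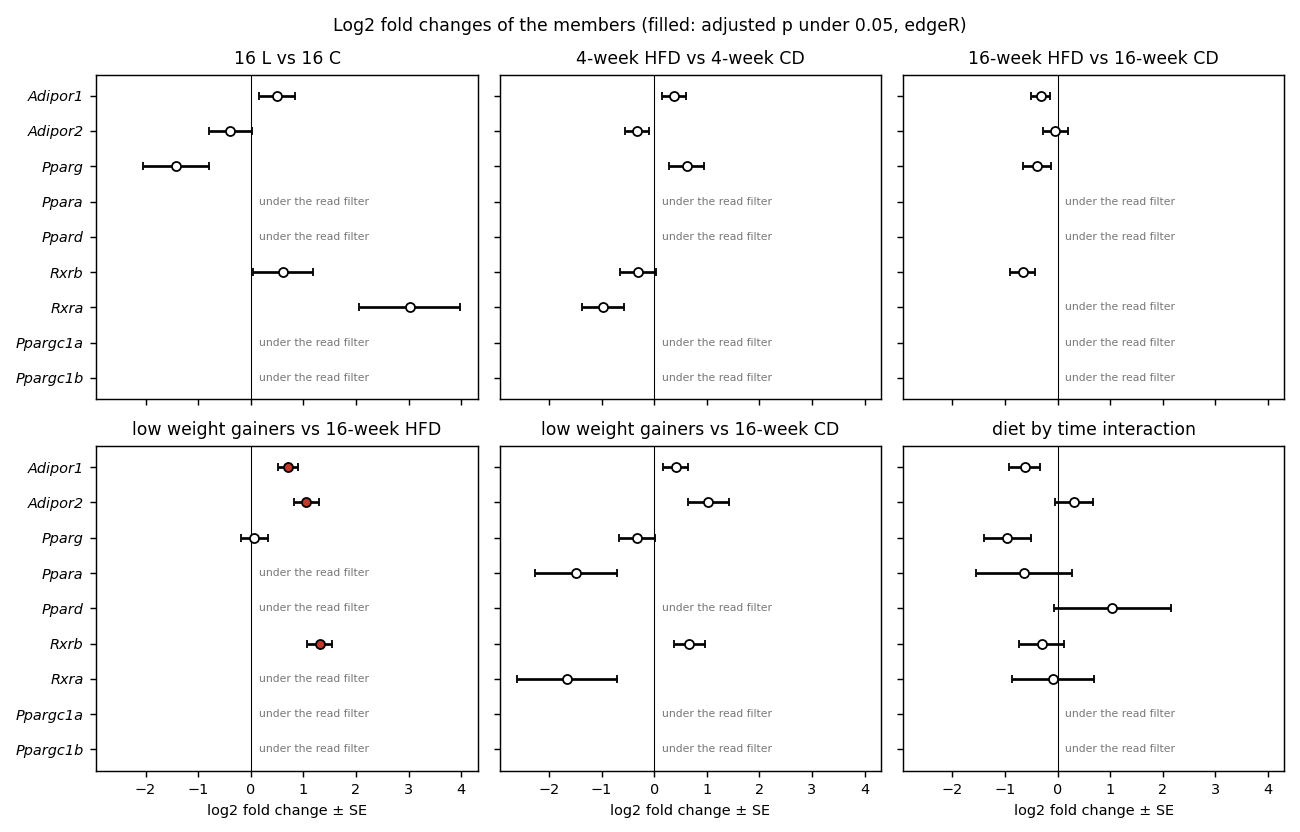
Log2 fold change of each member in the 6 comparisons, with bars of ± 1 standard error from edgeR; filled points have an adjusted p under 0.05, and members under the read filter are marked. The filled points are Adipor1, Adipor2 and Rxrb in the low weight gainers against 16-week HFD.

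The adiponectin receptors rose in the CCs of low weight gainers over those of the other mice on 16 weeks of HFD. Adipor1 (chr1:134415378-134433351, GRCm38, plus strand) stood at 201, 226 and 242 normalised CPM in the 3 low weight gainers. In 16-week HFD its lowest, median and highest levels were 107, 132 and 162, and in 16-week CD they were 134, 166 and 197. The low weight gainers therefore overlapped neither 16-week group. Against 16-week HFD the log2 fold change of Adipor1 was 0.70 (SE 0.19, edgeR adjusted p = 0.0161). The call was lost without low weight gainer 22 (0.70, adjusted p = 0.0525) or 23 (0.64, adjusted p = 0.0930), and in 1 fit of all 34 libraries (0.74, adjusted p = 0.0614). Against 16-week CD the log2 fold change was 0.41 (SE 0.24, edgeR adjusted p = 0.552).

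Adipor2 (chr6:119353150-119417483, GRCm38, minus strand) stood at 702, 622 and 296 normalised CPM in low weight gainers 21, 22 and 23. Its lowest, median and highest levels were 206, 263 and 316 in 16-week HFD and 156, 273 and 411 in 16-week CD. Libraries 21 and 22 thus lay above every other library of the series, while library 23 lay within the range of both 16-week groups. The log2 fold change against 16-week HFD was 1.05 (SE 0.24, edgeR adjusted p = 0.00659). Without library 21 the fold change was 0.83 and the call was lost (adjusted p = 0.0608). Against 16-week CD the log2 fold change was 1.03 (SE 0.38, edgeR adjusted p = 0.367). The share of reads on mitochondrial genes also separated these groups, at 0.337% to 0.614% in the low weight gainers and 0.786% to 1.53% in 16-week HFD. The summed level of oviduct markers overlapped, at 11.5 to 306 and 5.84 to 561 normalised CPM with 6 of 7 markers read in each group. The summed macrophage and neutrophil markers overlapped too, at 318 to 387 and 140 to 700 with 11 of 11 read. Of these, the neutrophil gene S100a8 stood at 42.8, 1.81 and 61.1 normalised CPM in low weight gainers 21, 22 and 23 and at 0 to 5.99 in 16-week HFD. S100a9, which encodes its partner subunit, stood at 14.2, 0 and 20.6 and at 0 to 0.487. Libraries 21 and 23 thus lay above 16-week HFD for both genes, and library 22 lay within its range. The part of the mitochondrial share and of the neutrophil genes in the calls of the 3 members was not tested.

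The diet comparisons gave no call for either receptor. After 4 weeks, Adipor1 stood at 116, 145, 151, 160 and 198 normalised CPM in CD and at 142, 159, 230, 237 and 243 in HFD. Adipor2 stood at 157, 175, 226, 235 and 254 in CD and at 138, 147, 181, 182 and 199 in HFD. The libraries of the groups overlapped for both receptors. The log2 fold change was 0.38 (SE 0.23, edgeR adjusted p = 0.331) for Adipor1 and -0.33 (SE 0.23, adjusted p = 0.380) for Adipor2, with limma-voom calling Adipor1 (0.63, adjusted p = 0.00503). After 16 weeks, the log2 fold change of HFD over CD was -0.32 (SE 0.18, edgeR adjusted p = 0.261) for Adipor1, which was called with scaling by total counts (-0.71, adjusted p = 0.0469). For Adipor2 it was -0.04 (SE 0.23, adjusted p = 0.929), with a 95% interval of about 2 SE from -0.51 to 0.43. The difference of the HFD effect on Adipor1 between the times was -0.63 (SE 0.30, edgeR adjusted p = 0.199), and limma-voom called it (-0.91, adjusted p = 0.00629).

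With leptin, Adipor1 stood at 254, 179, 149, 139 and 154 normalised CPM in 16 L libraries 18, 19, 20, 21 and 23, and at 120, 103 and 151 in 16 C. Adipor2 stood at 66.9, 162, 173, 147 and 174 in the same 16 L libraries and at 135, 278 and 148 in 16 C. Library 18, which held the most oviduct and red cell markers, had the highest Adipor1 and the lowest Adipor2 of its group. The log2 fold changes were 0.49 (SE 0.34, edgeR adjusted p = 0.335) for Adipor1 and -0.39 (SE 0.41, adjusted p = 0.528) for Adipor2. Scaled by total counts instead, all genes shifted up by a median of 1.08 in place of 0.27, Adipor1 was called and Adipor2 changed sign (0.51).

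The ratio of the receptors within a library needs no scaling between libraries. Per kilobase, Adipor2 over Adipor1 was 0.628, 0.662, 0.706, 0.778 and 0.815 in 4-week HFD. In 4-week CD it was 0.666 in library 11 and 1.27, 1.30, 1.31 and 1.34 in the others. Adipor1 was thus the more abundant receptor in all 5 libraries of 4-week HFD and in 1 of 5 of 4-week CD. In the 16-week groups the order was mostly the other way. The ratio ran from 1.10 to 2.09 (median 1.56) in 16-week HFD, and was 2.94, 2.31 and 1.03 in low weight gainers 21, 22 and 23. In 16-week CD it was 0.731 and 0.664 in libraries 1 and 2, and 1.32 to 2.17 in the other 4. In the leptin protocol it was 0.946, 2.27 and 0.825 in 16 C and 0.221 to 0.976 in 16 L, with the lowest value in library 18. A ratio within a library shows unequal levels and not which receptor moved.

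**Figure D3:**
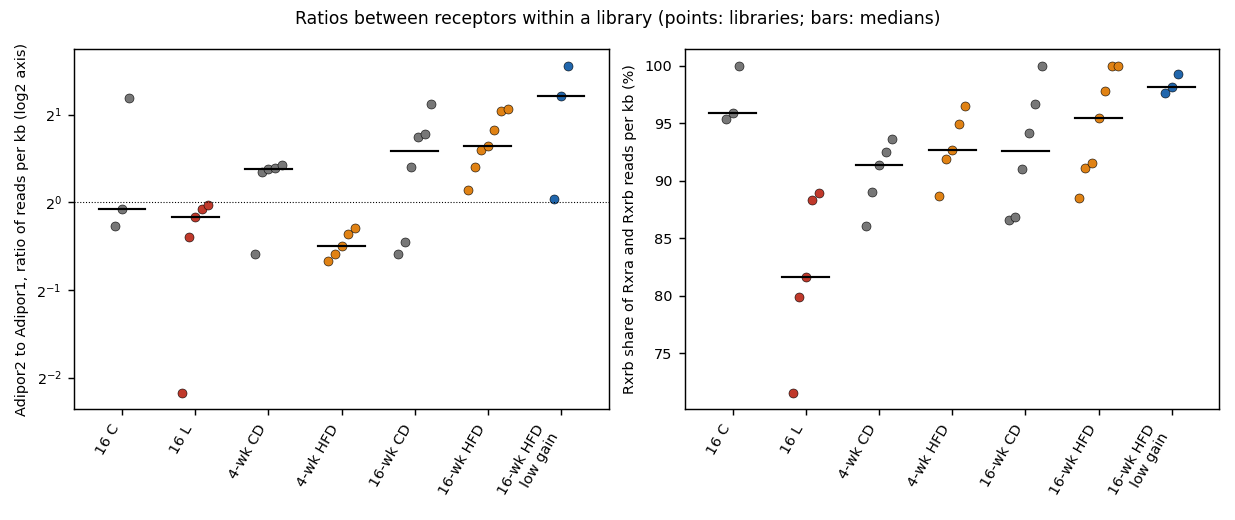
Left, the ratio of Adipor2 to Adipor1 reads per kilobase on a log2 axis; right, the share of Rxrb in the Rxra and Rxrb reads per kilobase, in percent. Points are libraries and bars are group medians. All 5 libraries of 4-week HFD lie under a ratio of 1, and the 5 libraries of 16 L lie at 71.5% to 88.9% of Rxrb, under the 3 of 16 C.

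The 3 members called in low weight gainers were read in RefSeq promoter windows of 250 bases before the transcription start (GRCm38.p6, 5′ to 3′). RefSeq windows matched 8 of the 9 members, and some genes have more than 1. Shown are the window next to the table's gene start for Adipor1 (chr1:134415128-134415377, plus) and Rxrb (chr17:34031562-34031811, plus), and the 1 window of Adipor2 (chr6:119388735-119388984, minus), which lies inside the span the table lists for the gene. Capitals mark motif matches.
Adipor1: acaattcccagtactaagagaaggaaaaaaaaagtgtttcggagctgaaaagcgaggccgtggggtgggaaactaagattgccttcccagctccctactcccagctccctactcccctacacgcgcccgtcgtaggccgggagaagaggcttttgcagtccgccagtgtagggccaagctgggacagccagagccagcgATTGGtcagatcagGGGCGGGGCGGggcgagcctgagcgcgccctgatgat
Adipor2: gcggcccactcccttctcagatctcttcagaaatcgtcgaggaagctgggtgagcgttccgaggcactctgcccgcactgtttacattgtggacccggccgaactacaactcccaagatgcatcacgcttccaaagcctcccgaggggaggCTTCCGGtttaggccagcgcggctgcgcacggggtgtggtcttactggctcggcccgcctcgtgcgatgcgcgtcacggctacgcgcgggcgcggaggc
Rxrb: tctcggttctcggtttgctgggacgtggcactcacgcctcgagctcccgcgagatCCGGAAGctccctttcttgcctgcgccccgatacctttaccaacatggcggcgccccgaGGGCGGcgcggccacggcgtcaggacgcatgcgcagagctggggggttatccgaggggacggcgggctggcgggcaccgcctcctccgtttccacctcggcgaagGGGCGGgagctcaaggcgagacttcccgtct

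The motifs were searched by exact letters on both strands: the PPAR element AGGTCANAGGTCA, the single nuclear receptor site AGGTCA (which the full element contains), GGGCGG for the GC box, CCAAT for the box of that name, TATAAA for the TATA box, GCGCNTGCGC for NRF1, CACGTG for the E-box and CCGGAAG for the ETS core. Adipor1 held 2 GC boxes that overlap by 1 base, at 37 and 32 bases before the start, and a CCAAT box at 51. Adipor2 held 1 ETS core at 99 bases. Rxrb held GC boxes at 136 and 31 bases and an ETS core at 195. None of the 8 motifs was found in all 3 windows shown. A second window of Adipor1 (chr1:134415414-134415663, plus) held GC boxes at 61 and 11 bases and an ETS core at 194, so each of the 3 genes had an ETS core in at least 1 of its windows. The share of the 32841 mouse promoter windows with a match was 32.7% for the GC box, 33.9% for CCAAT and 6.91% for the ETS core. The full PPAR element was in 0.0335% of windows and in no window of the members or of 25 listed PPAR target genes. The single site AGGTCA was in 14% of all windows and in those of 7 of the 25 target genes. Among members it was in a window of Pparg at 28 and in another at 9 bases before the start, and in a window of Rxra at 87 and 48 bases.

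Pparg, the PPAR of adipocyte formation and lipid storage (chr6:115361221-115490401, GRCm38, plus strand), was lower in most 16 L libraries, but not past the threshold. It stood at 10.4, 32.4, 4.36, 4.82 and 9.11 normalised CPM in 16 L libraries 18, 19, 20, 21 and 23, and at 34.8, 23.5 and 42.4 in 16 C. Library 19, the one with the high mitochondrial share, lay within the range of 16 C and the other 4 lay under it. The log2 fold change was -1.42 (SE 0.62, edgeR adjusted p = 0.149). Without library 19 it was -2.17 and was called (adjusted p = 0.0247), and it was also called by limma-voom (-2.39) and in 1 fit of all libraries (-1.37). With scaling by total counts it was -0.64 (adjusted p = 0.443). Without libraries 18, 20 and 21, the 3 with the most oviduct markers, it was -0.69 (adjusted p = 0.362). That fit kept only libraries 19 and 23 of 16 L, and library 19 was the one within the range of 16 C. It therefore cannot show whether the fall depended on the libraries with oviduct markers. The summed level of the granulosa markers was also lower in 16 L, at 1595 to 8865 normalised CPM (11 of 11 read) against 13589 to 38504 in 16 C. Gja1 alone had a median of 14612 in 16 C and 1637 in 16 L. The markers did not move as a class. The medians of Gja1, Inha, Inhba, Hsd17b1 and Fshr were lower in 16 L. Those of Foxl2, Amhr2, Nr5a2, Kitl, Cyp19a1 and Amh were higher. The part of these markers in the result was not tested.

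In the diet groups Pparg did not pass the threshold. After 4 weeks it stood at 5.96, 13.2, 18.8, 28.6 and 34.2 normalised CPM in CD and at 24.5, 31.7, 32.7, 34.5 and 34.5 in HFD. The CD libraries were spread over a wide range that took in most of the narrow HFD range, and the log2 fold change was 0.62 (SE 0.33, edgeR adjusted p = 0.260). After 16 weeks the lowest, median and highest levels were 33.4, 36.2 and 82.0 in CD and 22, 35.3 and 56.5 in HFD, with a log2 fold change of -0.39 (SE 0.26, edgeR adjusted p = 0.342). The difference of the HFD effect between the times was -0.95 (SE 0.45, edgeR adjusted p = 0.197). The low weight gainers stood at 41.2, 32.9 and 41.4. Their log2 fold change was 0.06 against 16-week HFD (SE 0.26, edgeR adjusted p = 0.885), with a 95% interval of about 2 SE from -0.45 to 0.57. Against 16-week CD the log2 fold change of Pparg was -0.32 (SE 0.34, adjusted p = 0.760).

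Ppara, the PPAR of hepatic fatty acid oxidation (chr15:85734983-85802819, plus strand), had 283 reads in all libraries together. It was highest in 16-week CD, at a lowest, median and highest level of 0.276, 2.28 and 4.76 normalised CPM, against 0, 0.974 and 3.76 in 16-week HFD. The difference of mean log2(RPM + 1), with RPM scaled by the total count, was -0.79 (exact permutation test, two-sided, p = 0.138). In 16 L, 45 of its 48 reads came from library 19 and the other 3 from library 20. Ppard, the most widely expressed PPAR of other tissues (chr17:28232754-28301469, plus strand), had 187 reads in all. It stood at 4.12, 1.49, 1.19, 3.58 and 3.53 normalised CPM in 4-week CD libraries 11, 1, 2, 7 and 8, and at 1.11, 0.500, 1.11, 0.873 and 2.30 in 4-week HFD. The difference of mean log2(RPM + 1) was -0.90 (exact permutation test, two-sided, p = 0.0476). It did not hold after adjustment over the 21 such tests of low members (adjusted p = 0.756). The other tests of members under the read filter, over 5 comparisons, had an adjusted p of at least 0.756, and no such test was run for the difference of the HFD effect between times.

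RXRs are the obligate DNA-binding partners of the PPARs and of several other nuclear receptors. Rxrb (chr17:34031812-34038393, GRCm38, plus strand) stood at 44.3, 30.8 and 30.7 normalised CPM in low weight gainers 21, 22 and 23. Its lowest, median and highest levels were 11.0, 12.4 and 20.2 in 16-week HFD and 13, 21.8 and 29.8 in 16-week CD. The low weight gainers overlapped neither group. Libraries that did not overlap in the higher direction made up 11.5% of all genes against 16-week HFD and 3.61% against 16-week CD, and 2 members, Adipor1 and Rxrb, did so in both. The log2 fold change of Rxrb was 1.31 against 16-week HFD (SE 0.23, edgeR adjusted p = 0.00206), and it stayed called without any 1 library, at 1.11 to 1.42. Against 16-week CD it was 0.67 (SE 0.30, adjusted p = 0.440). In 16-week HFD against CD it was -0.67 (SE 0.24, edgeR adjusted p = 0.111). That difference was called with scaling by total counts (-1.08, adjusted p = 0.0391) and without CD library 9 (-0.78, adjusted p = 0.0286), and was -0.38 (adjusted p = 0.615) without CD libraries 1 and 2, whose level of 29.8 and 26.1 was the highest of their group.

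After 4 weeks Rxrb stood at 41.3, 49.6, 53.6, 64.6 and 63.2 normalised CPM in CD. In HFD it stood at 21.6 and 16.4 in libraries 13 and 14 and at 68.6, 56.6 and 61.6 in libraries 3, 4 and 5. The HFD libraries thus fell into a low pair and a set of 3 within or above the CD range, and the log2 fold change was -0.31 (SE 0.35, edgeR adjusted p = 0.592). With leptin Rxrb stood at 7.17, 27.5, 43.6, 44.1 and 53.6 in 16 L libraries 18, 19, 20, 21 and 23, and at 25.7, 26.7 and 15.4 in 16 C. Library 18 lay under 16 C and the other 4 above it, with a log2 fold change of 0.61 (SE 0.57, edgeR adjusted p = 0.479). It was 1.27 by limma-voom, which called it (adjusted p = 0.000992), and 1.53 with scaling by total counts (adjusted p = 0.0926).

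Rxra (chr2:27676440-27762957, GRCm38, plus strand) was higher in every 16 L library than in any of 16 C. It had 23, 50, 31, 11 and 55 reads in 16 L libraries 18, 19, 20, 21 and 23, or 3.93, 4.99, 13.5, 7.57 and 18.6 normalised CPM. In 16 C it had 2, 15 and 0 reads, or 1.51, 1.77 and 0 normalised CPM. Libraries that did not overlap in this direction were found for 12.2% of all genes. Rxra passed the read filter through the 16 L libraries alone, the group in which it was high. Its fitted values there are therefore not given, and its calls are not read as support for a change. Library 23, which had the highest Rxra, held 304 normalised CPM of oviduct markers. The Rxrb share of the Rxra and Rxrb reads per kilobase was 71.5% to 88.9% in 16 L and 95.4% to 100% in 16 C, with no overlap. The share of reads on the 50 most abundant genes moved with it, at 13.4% to 19.8% in 16 L and 30.7% to 34.6% in 16 C. Over the 34 libraries the Pearson r of Rxra with that share was -0.77, a description that includes differences between groups, and its part in the result was not tested. The summed level of the cumulus expansion markers did not overlap either, at 42.3 to 955 normalised CPM in 16 L and 1647 to 2545 in 16 C, with 8 of 8 read in each. Tnfaip6 alone had a median of 1891 in 16 C and 262 in 16 L. The medians of Has2, Ptx3, Ereg, Btc and Vcan were also lower in 16 L, and those of Ptgs2 and Areg were higher. The macrophage and neutrophil markers overlapped, at 76.7 to 1325 and 117 to 785, and were highest in 16 L libraries 23 and 20, the pair with the highest Rxra. The part of these markers was not tested.

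In 4-week HFD Rxra stood at 3.80, 2.00, 5.06, 2.84 and 6.68 normalised CPM, and in 4-week CD at 5.37, 5.56, 11.9, 10.9 and 5.89. The groups overlapped, and the log2 fold change was -0.97 (SE 0.39, edgeR adjusted p = 0.148), with limma-voom calling it (-0.95, adjusted p = 0.0336). The share of reads on the 50 most abundant genes did not overlap, at 13.7% to 18.5% in CD and 18.7% to 20.2% in HFD. The part of that share in the levels of Rxra was not tested. In the 16-week groups Rxra had 77 reads in CD and 28 in HFD, under the read filter. The low weight gainers had 12 reads. Against 16-week CD, Rxra passed the filter through CD libraries 1, 2 and 8 alone and failed it without any of them, so its fitted value there is not given. The members with the fewest reads thus allowed no statement on the low weight gainers.

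The PGC-1 coactivators were close to absent from the reads. Ppargc1a, the cold- and exercise-induced coactivator (chr5:51454249-51567725, minus strand), had 0 reads in 16-week CD and in the low weight gainers, 2 in 16-week HFD, 4 in 4-week CD, 13 in 4-week HFD, 3 in 16 C and 78 in 16 L. Of the 78, 71 came from library 18, which had 12.1 normalised CPM, and the other 4 libraries had 1, 3, 1 and 2 reads. Adipocyte markers also stood highest in library 18, at 156 normalised CPM summed over 7 genes against 0.998 to 16.5 in the other 16 L libraries and 0.771 to 6.27 in 16 C, where 2 of the 7 were read. Adipoq, the adiponectin gene itself and the defining marker of fat cells, was read 52 times in 16 L libraries and 0 times in 16 C. The part of other cells in the reads of Ppargc1a was not tested. The difference of mean log2(RPM + 1) between 16 L and 16 C was 1.30 (exact permutation test, two-sided, p = 0.107), and it was 0.76 without library 18. Ppargc1b (chr18:61298136-61400431, minus strand), the related coactivator of basal mitochondrial gene expression, had 81 reads in 22 of 34 libraries. Its group medians ran from 0 to 0.683 normalised CPM, the highest in 16 L. None of the 5 comparisons tested gave it an unadjusted p under 0.05 in the exact permutation test, and its largest difference was 0.71 in 16 L against 16 C (p = 0.25).

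Genes that work with the members were counted in 4 lists: 21 partners of adiponectin signalling, 16 PPAR partners, coactivators and corepressors, 15 receptors and factors coactivated by PGC-1, and 36 PPAR target genes. In the low weight gainers against 16-week HFD, 3 of 16 adiponectin partners tested were called (1 higher, 2 lower), where 20.7% of all genes were, with a median log2 fold change of 0.05 against -0.03 for all genes. Stk11, the kinase that activates AMP-activated kinase, rose by 1.12 (SE 0.22, edgeR adjusted p = 0.00297), at 73.7 to 91.6 against 22 to 53.9 normalised CPM. Prkaa2, a catalytic subunit of that kinase, fell by 1.42, and the deacetylase gene Sirt1 fell by 0.90. Of the PPAR coregulators 5 of 15 were called (1 higher, 4 lower; median -0.39). Nrip1, a corepressor, fell by 1.25, the acetyltransferase genes Crebbp and Ep300 fell by 1.10 and 0.95, and Ncoa2, a coactivator, fell by 0.76. Of the PGC-1 partners 4 of 12 were called (1 higher, 3 lower; median -0.34): Nr1h2, which encodes the oxysterol receptor LXRβ, rose by 2.09, while Yy1, Thrb and Tfb2m fell by 1.35, 1.07 and 0.98. Nr1h2 stood at 55.7, 59.2 and 147.8 normalised CPM in the low weight gainers and at 6.99 to 33.3 in 16-week HFD. Of the PPAR target genes 8 of 25 were called (5 higher, 3 lower; median -0.16). Slc27a1, a fatty acid transporter gene, rose by 1.57, Ucp2, a mitochondrial carrier gene, by 1.28, and Cpt2, which acts in mitochondrial fatty acid import, by 1.10. Lpl, the lipase that frees fatty acids from lipoproteins, fell by 1.46, to 44.5 to 50.5 normalised CPM from 79.6 to 163. The target genes thus moved in both directions. Without low weight gainer 23 the coregulators called went from 5 to 1 and all genes called from 2330 to 596. Over all single libraries left out, the calls ran from 1 to 5 adiponectin partners, 1 to 6 coregulators, 2 to 5 PGC-1 partners and 5 to 9 target genes. In 1 fit of all 34 libraries they were 1, 1, 1 and 3.

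In 16 L against 16 C, 1 of 16 adiponectin partners was called, the ceramidase gene Acer3, which fell by 1.35 (edgeR adjusted p = 0.0281), where 8.56% of all genes were called. Of the PPAR coregulators 3 of 15 were called. Med1, the Mediator subunit that binds nuclear receptors, fell by 2.82 (SE 0.47, edgeR adjusted p = 0.0148), from 668, 733 and 766 normalised CPM to 58.4 to 208. Ncoa1, a coactivator, fell by 2.48. Of the PGC-1 partners 0 of 13 were called with edgeR, and 4 had an unadjusted p under 0.05 (32.4% of all genes). DESeq2 called 1 of them and 2629 of all 11723 genes, and limma-voom 9 of them and 7552 genes. Of the target genes 2 of 25 were called, Ucp2 (3.45, from 6.06 to 26.0 up to 129 to 215 normalised CPM) and Slc27a1 (1.73). The list medians were 0.23, 0.29, 0.32 and 0.07, against 0.27 for all genes. Calls over all genes went from 1004 to 30 without 16 C library 1 and to 4635 without 16 L library 18. Those of the 4 lists went to 0 without the former. Without the latter they were 6 adiponectin partners, 7 coregulators, 4 PGC-1 partners and 9 target genes.

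**Figure D4:**
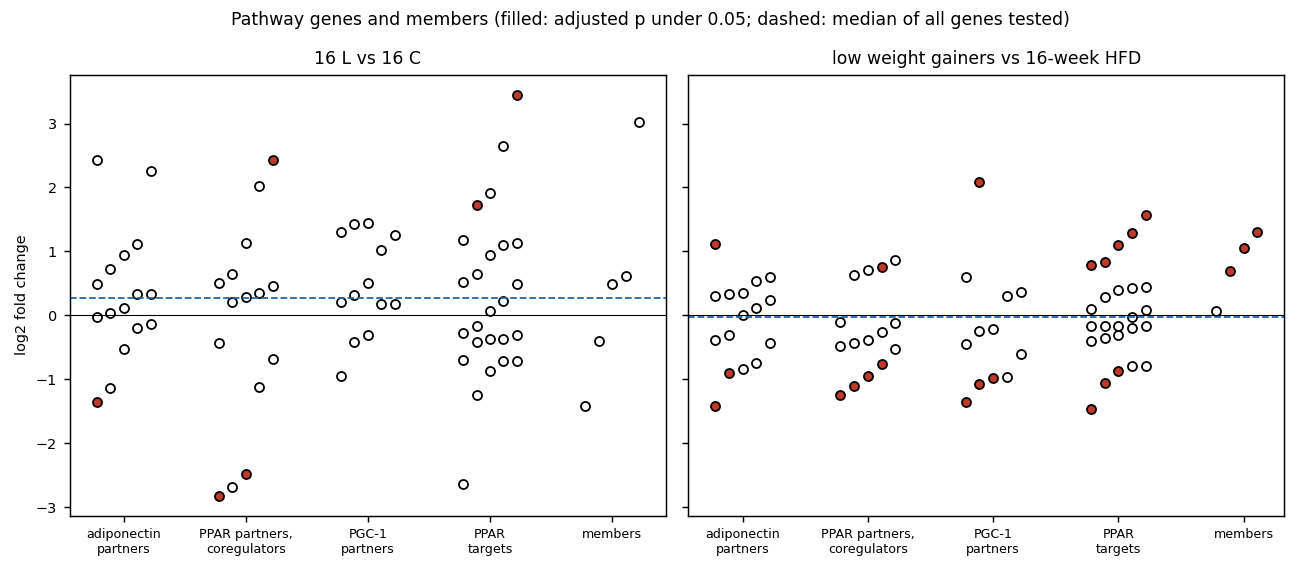
Log2 fold changes of the tested genes of the 4 pathway lists and of the members, in 16 L against 16 C (left) and in low weight gainers against 16-week HFD (right); filled points have an edgeR adjusted p under 0.05 and the dashed line is the median of all genes tested. In the low weight gainers, genes past the threshold lie on both sides of 0 in each list, while the 3 members past it are all higher.

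In 4-week HFD against CD, where 4.26% of all genes were called, the calls were Asah1 (1.83) and Camkk2 (-1.48) of 16 adiponectin partners, Crebbp (-1.04) of 15 coregulators, Yy1 (-1.69) of 13 PGC-1 partners and Hadhb (1.32) of 26 target genes. Asah1 encodes a ceramidase of the lysosome, Camkk2 an upstream kinase of AMP-activated kinase, and Hadhb a subunit of the trifunctional protein of fatty acid oxidation. Leaving out single libraries took the calls over all genes from 499 to between 8 (without CD library 8) and 1700 (without CD library 11), with 22 without HFD library 5. None of the 5 calls in the lists was made without CD library 8, HFD library 3 or HFD library 5, the library with the oocyte markers. Without CD library 11 the calls were 4 adiponectin partners, 4 coregulators, 5 PGC-1 partners and 2 target genes. In 16-week HFD against CD, 0 of 68 list genes tested were called with edgeR (0.0276% of all genes), with 23 at an unadjusted p under 0.05 (25.3%). There DESeq2 called 8 list genes and 1056 of all 10861 genes, and limma-voom 0 list genes and 5 of all genes. In the low weight gainers against 16-week CD, 0 of 69 were called with edgeR (0.00861% of all genes), with 12 at an unadjusted p under 0.05 (11.2%). There DESeq2 called 2 list genes and 250 of all 11620 genes, and limma-voom 1 list gene and 196 of all genes. The difference of the HFD effect between 16 and 4 weeks was called for Ncor1 (1.32) and Crebbp (1.13) of 15 coregulators, for Mef2c (2.34), Yy1 (2.22) and Thra (1.68) of 13 PGC-1 partners, and for Lpl (1.14) and Ucp2 (-3.50) of 28 target genes, with edgeR adjusted p from 0.0189 to 0.0484, where 3.66% of all genes were called. Without single libraries the calls ran from 0 to 5 coregulators, 1 to 5 PGC-1 partners and 1 to 5 target genes, and those over all genes from 69 (without 4-week HFD library 5) to 1685 (without 16-week CD library 9). Without 16-week CD libraries 1 and 2 together they were 0, 1 and 1, with 89 over all genes.

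Genes with a pattern most like each member over the 34 libraries were sought among 13236 genes by the Pearson r of log2 CPM, which includes differences between groups. For Pparg they were Nt5c3l (0.93), Slc30a6 (0.92) and Ddx47 (0.92), and the first of them also led after group means were removed (0.86). For Rxrb they were 2510039O18Rik (0.92), Dmwd (0.90) and Sidt2 (0.90). For Adipor1 they were Chmp1a (0.87), Ube2g2 (0.83) and Arf1 (0.82), and for Adipor2 Cenpo (0.82) and BC031781 (0.77). For Rxra they were Pxn (0.87), Nt5dc3 (0.87) and Itpr3 (0.86). Among the members themselves, Rxra and Rxrb had an r of 0.63, or 0.48 after group means were removed. That of Pparg and Rxra was -0.49, or -0.04 after removal, and that of Adipor1 and Adipor2 was -0.05, or -0.39.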

How the data were processed

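RNA of CCs was copied with the Smart-seq2 oligo-dT method, without molecular identifiers, and made into Nextera XT libraries. The submitters' processing notes name Trim Galore 0.4.2, HISAT2 2.0.5 and GRCm38; the counting program and its use of strand are not given in the sources used here. The authors deposited 1 table of read counts per gene and library, not normalised, for 34 libraries with 1104611 to 13207018 reads. The 9 members matched 1 entry each by symbol, and no other entry overlaps them.

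Groups came from the sample labels. No replicate columns were identical among 72 pairs, and the lowest chi-square per degree of freedom between replicates was 3.26. Counts were tested with edgeR 4.0.16 in R 4.3.3 (two-sided quasi-likelihood F-test with robust dispersion, TMM factors and the filterByExpr filter) on all genes of the groups compared, with Benjamini-Hochberg adjustment over all genes tested and a threshold of 0.05. Members that failed the filter were tested with an exact permutation test of mean log2(RPM + 1). Lengths for RPKM were merged GENCODE M21 exons. DESeq2 1.42.0, limma-voom (limma 3.58.1), RLE size factors, total-count scaling, no filter, 1 fit of all 34 libraries, another pseudocount (0.1) and the removal of each replicate were alternatives. The fits were tested on simulated data.

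The members, lists and tests were chosen with earlier results of these data known. Of each list, up to 4 called genes with the largest fold change are named for each comparison, and for each member the 3 genes with the highest r; some items that these rules select are not reported here.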

Additional observations from a re-analysis of the deposited data

Results flagged for a closer look

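Within groups of 4 to 10 libraries, 5 values of the members, of 45 gene and group pairs examined, lay far from the rest of their group by Dixon's test. This test flags about 1 in 20 groups by chance where values are normally distributed. It was run on normalised CPM without a log, so that rate need not hold here, least of all for genes with few reads such as Ppargc1a. In 16 L, library 18 was the lowest for Adipor2 at 66.9 normalised CPM, where the next library had 147, with a gap of 0.751 of the group's range. The same library was the highest for Ppargc1a, at 12.1 normalised CPM from 71 reads against 1.31 in the next (0.9 of the range). It also held the most oviduct and red blood cell markers, and their part in these values was not tested.

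In 16 L, library 19 was the highest for Pparg, at 32.4 normalised CPM against 10.4 in the next (0.784 of the range). In 4-week HFD, library 4 was the lowest for Pparg, at 24.5 normalised CPM against 31.7 (0.724 of the range), and library 14 was the highest for Ppargc1a, at 0.858 normalised CPM from 12 reads against 0.0927 (0.892 of the range).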

How the results depend on the processing

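Of 597 log2 fold changes of the members under alternatives, 554 kept their direction and side of the threshold, 17 passed it anew, 4 lost it and 22 changed sign. Of 235 differences of members under the filter, judged by an unadjusted p of 0.05, the numbers were 205, 2, 7 and 21. Most of the 554 were values not called in the main fit that stayed so in settings sharing most of the data. The 4 lost calls were of Adipor1 and Adipor2 in the low weight gainers against 16-week HFD. Members called in 16 L against 16 C went from 0 to 1 with DESeq2, 3 with limma-voom, 2 with total-count scaling, 2 in 1 fit of all libraries, 1 without 16 L libraries 18, 20 and 21 together, and 0 to 1 without single replicates. Rxra, which passed that comparison's filter through 16 L alone, was among those called in each of these settings but the single replicates. Among the single replicates, only the removal of library 18 called it. Members called in 4-week HFD went from 0 to 2 with limma-voom. Those in 16-week HFD went from 0 to 2 with total-count scaling and 0 to 1 without single replicates. Those in the interaction of diet and time went from 0 to 1 with limma-voom. Those in the low weight gainers against 16-week HFD were 2 to 3 without single replicates. The cause of these changes was not tested.

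Signs changed for Adipor2 in 16 L (limma-voom 0.15, total counts 0.51, single replicates left out -0.58 to 0.037) and in the interaction (limma-voom -0.0027), and for Rxra in the interaction (limma-voom 0.92, without 16-week CD libraries 1 and 2 together 0.65, single replicates left out -0.48 to 0.26). Without single replicates they changed for Adipor2 in 16-week HFD (-0.13 to 0.12) and Pparg in the low weight gainers against 16-week HFD (-0.011 to 0.20). Among members under the filter, a pseudocount of 0.1 gave 0.13 for Ppargc1b in 4-week HFD, and 0.48 for Ppara and 0.34 for Rxra in the low weight gainers against 16-week HFD. Without single replicates the differences spanned 0 in 4-week HFD for Ppargc1a (-0.30 to 0.070) and Ppargc1b (-0.25 to 0.21), and in 16-week HFD for Ppard (-0.38 to 0.034). They also did in the low weight gainers against 16-week HFD for Ppara (-0.19 to 0.16), Ppard (-0.23 to 0.63), Rxra (-0.18 to 0.19) and Ppargc1b (-0.15 to 0.14), and against 16-week CD for Ppard (-0.45 to 0.40).

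Counts over all genes moved more. With edgeR, DESeq2 and limma-voom they were 1004, 2629 and 7552 in 16 L, 499, 1291 and 4048 in 4-week HFD, 3, 1056 and 5 in 16-week HFD, 2330, 2848 and 3287 in the low weight gainers against 16-week HFD, 1, 250 and 196 in those against 16-week CD, and 448, 1165 and 2355 in the interaction. With total-count scaling they were 4035 in 16 L, 1646 in 16-week HFD and 873 for the interaction, and in 1 fit of all libraries 4384, 1258 and 157. That fit called 487 in the low weight gainers against 16-week HFD and 69 in 4-week HFD. Total-count scaling moved the median log2 fold change over all genes from 0.27 to 1.08 in 16 L and from -0.05 to -0.40 in 16-week HFD. The fits without sets of 16 L or 16-week CD libraries together were added after the data were seen. No paired analysis was possible because the groups set directly against each other share fewer than 2 replicate numbers. With 3 libraries of 16 C and of low weight gainers, and 81 to 620 reads in all for 4 members and 100 for Ppargc1a, small changes of these genes could not be detected.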
